A study of Homo sapiens with 9 samples.

Results

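Aldo-keto reductases of family 1 and the cytosolic enzymes that regenerate NADPH were followed through 9 RNA-seq libraries of cells labelled HepG2, a human liver cancer line. The genes were taken by symbol: AKR1B1, AKR1B10, AKR1C1, AKR1C2, AKR1C3, PGD, TALDO1, ME1 and IDH1. All 9 were found once each among the 58174 genes of the deposited table. The libraries form 3 groups of 3: a line overexpressing NFE2L1, a line overexpressing NFE2L1DC and control cells, labelled WT, whose name in the protocol carries pLVX, a lentiviral vector. NFE2L1 (also called NRF1) is a cap'n'collar transcription factor anchored in the membrane of the endoplasmic reticulum. NFE2L1DC is written with a delta in the protocol, as C-terminal deletions often are, and the sources used here do not define it further. High-glucose DMEM with serum was the medium of all groups. The sources used here do not say whether each overexpressing line is a clone or a pool, or whether each replicate was a culture of its own, so the p-values here speak only for the spread between libraries, which may be technical.

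Aldo-keto reductases reduce aldehydes and ketones, among them sugars, steroids and products of lipid peroxidation, with electrons from NADPH. NADPH is made in the cytosol mainly by the oxidative arm of the pentose phosphate pathway, to which PGD belongs, by malic enzyme (ME1) and by isocitrate dehydrogenase (IDH1). TALDO1, transaldolase, carries sugars between the non-oxidative arm of the pathway and glycolysis. Several of these genes are textbook targets of NFE2L2, a relative of NFE2L1, through the antioxidant response element in their regulatory regions.

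The values are TPM (a transcript's share of each library's total), which the authors scaled within each library and which correct for transcript length, so that levels of different genes can be set side by side. Each library had between 21809 and 23396 genes with a value above 0. The table holds no read counts, so depth is unknown and no counting error can be given. NFE2L1 itself stood at 207, 181 and 354 TPM in the NFE2L1 libraries, at 445, 427 and 472 TPM in the NFE2L1DC libraries and at 104, 81.7 and 64.0 TPM in the control libraries. It was highest with NFE2L1DC and lowest in control, with no overlap between groups. Against control its log2 fold change was 1.52 with NFE2L1 (limma adjusted p = 0.00582) and 2.44 with NFE2L1DC (adjusted p = 0.0014). For NFE2L1 against NFE2L1DC it was -0.92 and missed the threshold (adjusted p = 0.228). The table does not separate the transgene from the cells' own gene. The labelled cell type did not show in its markers. All 12 hepatocyte and HepG2 markers examined were under 1 TPM in every library, and ALB, APOB, TTR, SERPINA1 and FGB were listed at 0 throughout. Summed, the 12 came to 0.268 to 0.387 TPM with NFE2L1, 0.119 to 0.477 TPM with NFE2L1DC and 0.142 to 0.84 TPM in control, so the cells are called HepG2 here only as labelled. Control replicate 3 stood apart from control replicates 1 and 2. The log2 difference of control replicate 3 from the mean of control replicates 1 and 2 was lower in genes of higher GC content. Spearman's rho was -0.61 over 14085 genes, which are not independent replicates. Log2 fold changes also ran with GC content, at rho -0.39 with NFE2L1 and -0.32 with NFE2L1DC against control, and -0.20 between the lines. In median-of-ratios scaling, control replicates 1 and 2 had the lowest factors (0.896 and 0.879). Control replicate 3, at 1.05, lay within the range of the overexpressing libraries (0.983 to 1.07). Which control libraries are the better reference was not tested. Where leaving out control replicate 3 moved a named gene across the threshold, both values are given.

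The members covered a wide range of levels. TALDO1 was the highest of the 9 in each group, at 500.0 ± 16.2 TPM with NFE2L1, 438 ± 8.05 TPM with NFE2L1DC and 455 ± 35.4 TPM in control (SD, n = 3 each). AKR1B1 and PGD came next, and their libraries overlapped in the NFE2L1DC and control groups but not in the NFE2L1 group. IDH1 and AKR1C3 followed: IDH1 lay above AKR1C3 with NFE2L1 and with NFE2L1DC, with no overlap between the genes, while in control AKR1C3 had the higher mean and the genes overlapped. ME1, AKR1C2 and AKR1C1 stood between 5.56 and 20.2 TPM in all libraries. AKR1B10 was the lowest of the 9 in each group.

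**Figure D1:**
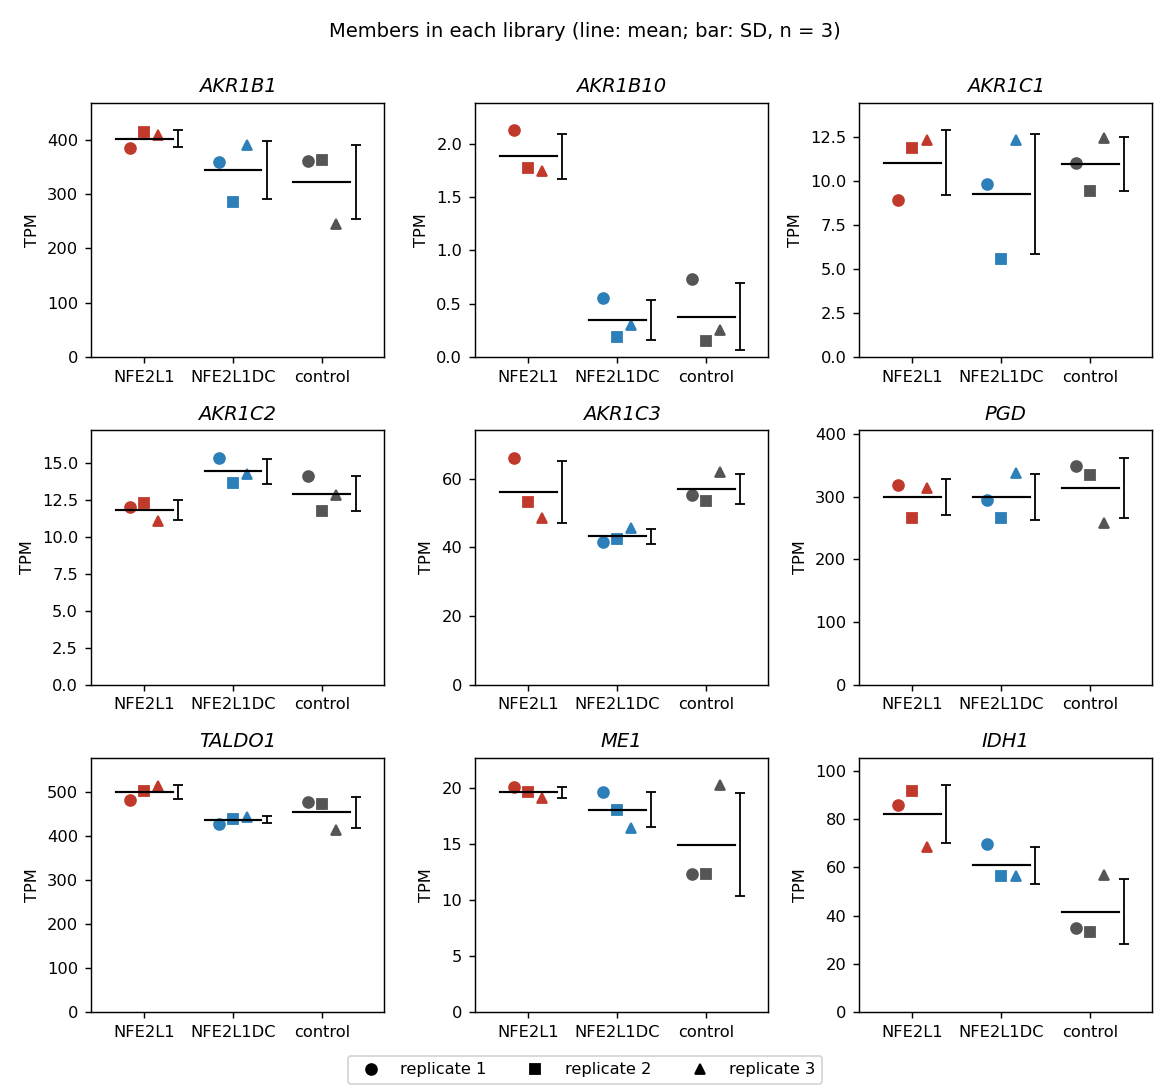
TPM (y axes, linear from 0) of the 9 genes in the NFE2L1, NFE2L1DC and control libraries, 1 point per library, with the group mean as a line and the SD (n = 3) as a bar. IDH1 in the NFE2L1 libraries lies above all control libraries, AKR1B10 is above 1 TPM only with NFE2L1, and ME1 in control replicate 3 lies at the level of the overexpressing lines.

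IDH1, which oxidises isocitrate in the cytosol and peroxisomes and yields NADPH, was higher in the NFE2L1 line (GRCh38 chromosome 2, 208236227 to 208266074, minus strand). It stood at 85.7, 91.6 and 68.5 TPM in the NFE2L1 libraries, at 69.5, 56.4 and 56.4 TPM in the NFE2L1DC libraries and at 34.7, 33.2 and 57.0 TPM in the control libraries. Every NFE2L1 library was above every control library, whereas the NFE2L1DC range overlapped with both other groups through control replicate 3 and NFE2L1 replicate 3. Bulk TPM cannot tell more cells that express a gene from more RNA per cell. On the log2(TPM + 1) scale IDH1 rose by 0.99 with NFE2L1 against control (SE 0.20, limma adjusted p = 0.0179), a fold of 1.97 in mean TPM. With NFE2L1DC its log2 fold change against the same control libraries was 0.57 (SE 0.20, adjusted p = 0.148). The difference between the overexpressing lines was 0.42 in favour of NFE2L1, with a 95% interval from -0.03 to 0.88 (adjusted p = 0.657).

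The size of the IDH1 change rested on which control libraries were used. Without control replicate 3 the log2 fold change was 1.24 with NFE2L1 (limma adjusted p = 0.000873) and 0.82 with NFE2L1DC (adjusted p = 0.00744). Against control replicate 3 alone it was 0.51 and 0.085. That fit has a single control library, whose spread is assumed to be that of the other groups, so its p-values say little. The call in the NFE2L1 line was also lost without control replicate 1 (0.89, adjusted p = 0.0672), control replicate 2 (0.85, adjusted p = 0.0718), NFE2L1 replicate 1 (0.96, adjusted p = 0.0669) and NFE2L1 replicate 2 (0.91, adjusted p = 0.0703). With no filter on low values the adjusted p was 0.0562. The call remained after a correction for GC content and transcript length, which lowered it to 0.66 (adjusted p = 0.0083). IDH1 in control replicate 3 exceeded the mean of control replicates 1 and 2 by 0.73 on the log2 scale, and its longest transcript has 43.1% GC.

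IDH2, the mitochondrial NADP-dependent isozyme, ran the other way. It stood at 34.1, 32.7 and 37.8 TPM with NFE2L1, at 44.2, 46.8 and 37.2 TPM with NFE2L1DC and at 56.7, 57.3 and 52.7 TPM in control. Both overexpressing lines lay under all control libraries. IDH2 fell by 0.66 on the log2 scale with NFE2L1 (SE 0.11, limma adjusted p = 0.00648), while the log2 fold change of -0.38 with NFE2L1DC missed the threshold (adjusted p = 0.0888) and without control replicate 3 passed at -0.41 (adjusted p = 0.0334). The ratio of IDH1 to IDH2 within a library, which no scaling between libraries can alter, was 2.38 ± 0.509 with NFE2L1, 1.43 ± 0.198 with NFE2L1DC and 0.757 ± 0.281 in control (SD, n = 3 each). Its groups did not overlap, with control replicate 3 at 1.08 and NFE2L1DC replicate 2 at 1.21 closest to each other. Between NFE2L1 and control this follows from the separate values of both genes and is no further support. The ratio compares a gene of lower GC content with one of 55.9% GC, so the GC trend between libraries bears on it, and its part in the ratio was not tested.

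**Figure D2:**
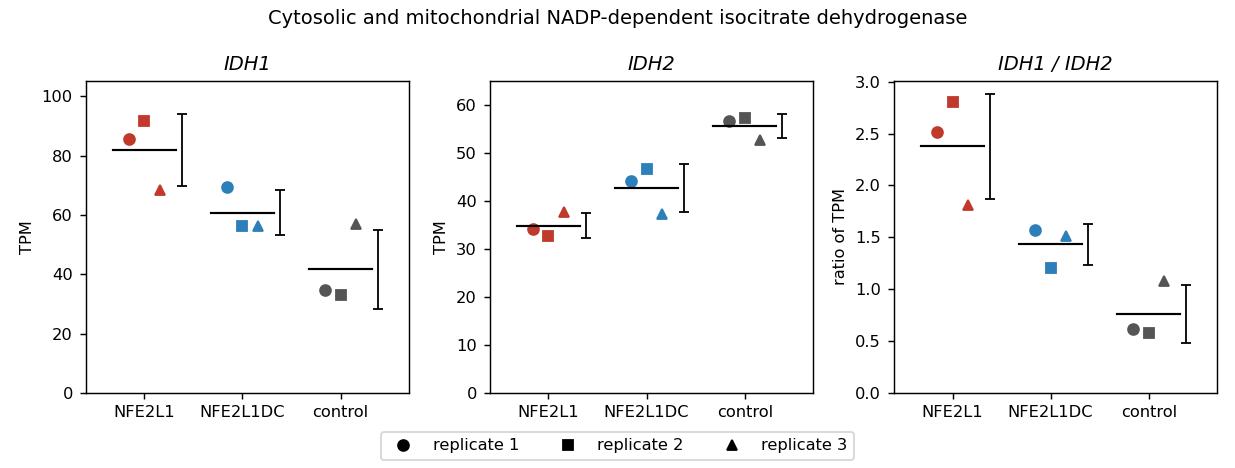
TPM of IDH1 and of IDH2 and their ratio (y axes, linear from 0) in the NFE2L1, NFE2L1DC and control libraries, with group means as lines and SD (n = 3) as bars. The mean ratio is 2.38 with NFE2L1, 1.43 with NFE2L1DC and 0.757 in control, and the point of control replicate 3 lies above those of control replicates 1 and 2.

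ME1, the cytosolic malic enzyme that turns malate into pyruvate and yields NADPH, did not pass the test (chromosome 6, 83210389 to 83431071, minus strand). It stood at 20.1, 19.6 and 19.1 TPM with NFE2L1, at 19.6, 18.0 and 16.5 TPM with NFE2L1DC and at 12.3, 12.3 and 20.2 TPM in control. Control replicate 3 was the highest of all 9 libraries, and control replicates 1 and 2 were the lowest. The log2 fold change was 0.40 with NFE2L1 (SE 0.18, limma adjusted p = 0.163) and 0.29 with NFE2L1DC (SE 0.18, adjusted p = 0.368). Without control replicate 3 both passed, at 0.63 (adjusted p = 0.0031) and 0.51 (adjusted p = 0.0115). Against control replicate 3 alone they were -0.044 and -0.16, and once GC content and length had been corrected for they were 0.015 and 0.0048. With 39.5% GC, the ME1 transcript is the lowest in GC content of the 9 genes, and whether this accounts for its values was not tested.

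The pentose phosphate members varied little. PGD, 6-phosphogluconate dehydrogenase (chromosome 1, 10398592 to 10420144, plus strand), stood between 266 and 319 TPM with NFE2L1, between 265 and 338 TPM with NFE2L1DC and between 259 and 349 TPM in control. Its log2 fold change was -0.060 with NFE2L1 and -0.063 with NFE2L1DC against control, with 95% intervals from -0.36 to 0.24 for both. TALDO1 (chromosome 11, 747329 to 765024, plus strand) was at 482, 504 and 514 TPM with NFE2L1, at 429, 440 and 445 TPM with NFE2L1DC and at 477, 474 and 414 TPM in control. The NFE2L1 libraries lay above the libraries of both other groups, by a log2 fold change of 0.14 against control (SE 0.069, limma adjusted p = 0.205) and 0.19 against NFE2L1DC (SE 0.069, adjusted p = 0.482). Neither passed, and under median-of-ratios scaling the change against control was -0.042.

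AKR1B10 and AKR1B1 lie next to each other on chromosome 7. AKR1B10, which reduces retinal and other aldehydes (134527592 to 134541408, plus strand), stood at 2.13, 1.77 and 1.75 TPM with NFE2L1, at 0.553, 0.191 and 0.299 TPM with NFE2L1DC and at 0.735, 0.15 and 0.251 TPM in control. All NFE2L1 libraries lay above 1 TPM and all others under it, so the gene entered the test only through the NFE2L1 group and its call there is no independent support. The fitted log2 fold change was 1.08 with NFE2L1 against control (SE 0.19, limma adjusted p = 0.00986), a fold of 4.96 in mean TPM, and -0.018 with NFE2L1DC (adjusted p = 0.962). The fold rests on control replicate 1, the highest of its group, without which it is 9.38. The NFE2L1 line exceeded the NFE2L1DC line by 1.10 (SE 0.19, adjusted p = 0.0369). This last call was lost in 11 of the 17 other settings that tested the gene, each of the 6 fits without 1 library of the compared lines among them, with adjusted p between 0.0143 and 0.175 over all 17.

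AKR1B1, aldose reductase, which turns glucose into sorbitol (134442350 to 134459284, minus strand), was far more abundant. It stood at 384, 413 and 408 TPM with NFE2L1, at 359, 286 and 389 TPM with NFE2L1DC and at 360, 363 and 244 TPM in control. The NFE2L1 libraries lay above control, and the lowest value belonged to control replicate 3. The log2 fold change was 0.34 with NFE2L1 (SE 0.16, limma adjusted p = 0.187) and 0.11 with NFE2L1DC (SE 0.16, adjusted p = 0.712). Without control replicate 3 the value for NFE2L1 was 0.15. AKR1B1 made up 83.2% ± 1.86 of the TPM of the 5 aldo-keto reductases with NFE2L1, 83.6% ± 1.18 with NFE2L1DC and 79.4% ± 5.01 in control (SD, n = 3 each).

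The AKR1C enzymes, hydroxysteroid dehydrogenases that reduce ketosteroids and prostaglandins, are encoded side by side on chromosome 10 and resemble each other closely. Over 969 coding bases AKR1C1 and AKR1C2 differ at 19, an identity of 98.04%, with 1 unbroken run of 186 identical bases. AKR1C3 is 91.4% identical to AKR1C1 and 91.0% to AKR1C2. Coding bases 73 to 162, counted from the A of the start codon in GENCODE release 29 and read 5′ to 3′, are shown because they hold 10 of the 19 differences between AKR1C1 and AKR1C2. Capitals mark the 19 positions at which the 3 genes are not all the same.
AKR1C1: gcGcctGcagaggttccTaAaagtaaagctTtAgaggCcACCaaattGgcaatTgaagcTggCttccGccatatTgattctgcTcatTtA
AKR1C2: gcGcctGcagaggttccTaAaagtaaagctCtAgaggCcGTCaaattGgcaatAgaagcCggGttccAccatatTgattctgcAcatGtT
AKR1C3: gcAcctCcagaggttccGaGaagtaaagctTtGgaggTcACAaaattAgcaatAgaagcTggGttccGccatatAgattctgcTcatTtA
A read from outside such stretches can fit several of these genes: of all windows of 100 coding bases, 20.7% of those in AKR1C1, 26.4% in AKR1C2 and 9.77% in AKR1C3 also occur in a transcript of another gene, against 3.53% in AKR1B10, shared with AKR1B15 and a pseudogene, and none in the 5 other members. The sources used here do not say how the authors assigned such reads, so the split between the 3 AKR1C genes is uncertain.

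No AKR1C gene passed in the 3 comparisons. Against control replicates 1 and 2 with the GC and length correction, AKR1C2 passed as lower with NFE2L1 (-0.75, limma adjusted p = 0.00536). In that setting AKR1C3 passed as lower with NFE2L1DC. With the correction and all control libraries, the log2 fold changes with NFE2L1 were -0.40 for AKR1C1, -0.52 for AKR1C2 and -0.35 for AKR1C3, none of them called. AKR1C3 (5035354 to 5107686, plus strand), which makes testosterone from androstenedione, stood at 66.1, 53.3 and 48.7 TPM with NFE2L1, at 41.6, 42.4 and 45.6 TPM with NFE2L1DC and at 55.3, 53.6 and 61.9 TPM in control. The NFE2L1DC libraries lay under those of both other groups, with a log2 fold change of -0.39 against control (SE 0.12, limma adjusted p = 0.109). It was the only member whose NFE2L1DC and control libraries did not overlap. AKR1C2 (4987400 to 5018031, minus strand) lay at 12, 12.31 and 11.03 TPM with NFE2L1, at 15.3, 13.7 and 14.2 TPM with NFE2L1DC and at 14.1, 11.7 and 12.8 TPM in control. AKR1C1 (4963253 to 4983283, plus strand), best known for inactivating progesterone, ranged from 8.90 to 12.3 TPM with NFE2L1, from 5.56 to 12.3 TPM with NFE2L1DC and from 9.43 to 12.4 TPM in control. Against control its log2 fold change was 0.0043 with NFE2L1 (95% interval -0.56 to 0.57) and -0.28 with NFE2L1DC (-0.84 to 0.29). That of AKR1C2 was -0.12 with NFE2L1 (-0.38 to 0.14) and 0.15 with NFE2L1DC (-0.11 to 0.41). Summed, AKR1C1 and AKR1C2 came to 22.8 ± 1.7 TPM with NFE2L1, 23.6 ± 3.89 TPM with NFE2L1DC and 23.8 ± 2.32 TPM in control (SD, n = 3 each). The 3 means differed by less than the spread between replicates. The sum does not remove the uncertain split, because both genes also share stretches with AKR1C3 and TPM depends on transcript length. AKR1C4, the liver member of the cluster, was under 0.02 TPM in all libraries.

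Counted together, 2 of the 9 members, IDH1 and AKR1B10, rose with NFE2L1 against control and none fell, beside 10.4% of all 14118 genes tested that changed in either direction (7.83% higher and 2.57% lower). Leaving out AKR1B10 for the reason given, 1 of the 8 members that reached 1 TPM in all libraries was called, a share near the background. Under median-of-ratios scaling the same pair was called, while over all genes 550 were called higher and 574 lower, against 1105 and 363 as reported. That scaling moved the median log2 fold change of all genes to 0.017, against 0.17 as reported. With NFE2L1DC none of the 9 was called by limma, 2 had an unadjusted p under 0.05, and 3.61% of all genes were called (2.06% higher and 1.54% lower). Between the lines the 1 called member of 9 was AKR1B10, beside 0.793% of all genes (0.715% higher and 0.0779% lower), and of the 8 others limma called 0 while 3 had an unadjusted p under 0.05. For counts at an unadjusted p under 0.05, here and below, no share over all genes was taken. They cannot be read against a background. The median log2 fold change of the members was 0.14 with NFE2L1 and -0.018 with NFE2L1DC, beside 0.17 and 0.12 over all genes tested. In TPM, 4 of 9 members (AKR1B1, AKR1B10, TALDO1 and IDH1) did not overlap between NFE2L1 and control, beside 32.1% of all genes (22.6% higher and 9.53% lower), and 1 of 9 did not between NFE2L1DC and control, beside 22.7% (13.7% higher and 8.98% lower). Between NFE2L1 and NFE2L1DC, 4 of 9 did not overlap, beside 18% of all genes (12.4% higher and 5.55% lower): AKR1B10, AKR1C3 and TALDO1 were higher with NFE2L1 and AKR1C2 was lower. AKR1B10 passed the filter of 1 TPM only through the NFE2L1 libraries, which fixed its lack of overlap in both counts. Of the 8 others, AKR1B1, TALDO1 and IDH1 remain against control, and AKR1C2, AKR1C3 and TALDO1 between the lines. The overexpressing lines share their control libraries, so their values against control are not independent.

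**Figure D3:**
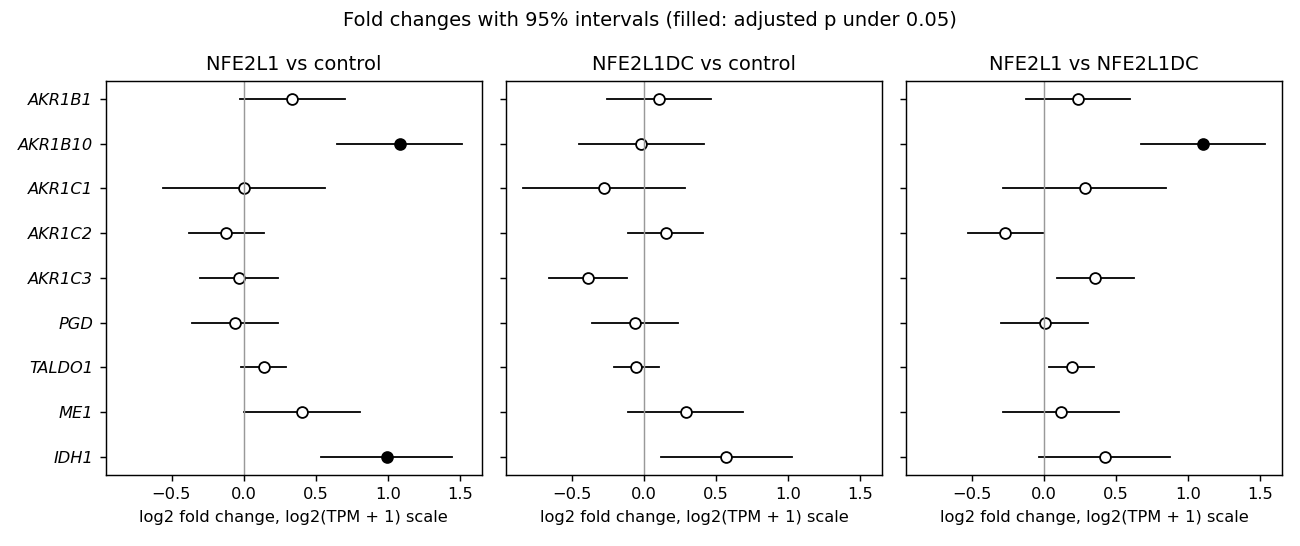
Log2 fold changes (x axes, log2(TPM + 1) scale) of the 9 genes in NFE2L1 against control, NFE2L1DC against control and NFE2L1 against NFE2L1DC, with 95% intervals from limma. Filled points have an adjusted p under 0.05 over all 14118 genes: IDH1 and AKR1B10 in the first panel, none in the second and AKR1B10 in the third.

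Promoter windows were read from RefSeq on GRCh38.p14, from 250 bases before to 50 after each annotated start, to set the antioxidant response element beside the values. Of the 9 members 8 had at least 1 window, 11 windows in all. AKR1B10 was not among them. The element was searched as TGACNNNGC or TGAGNNNGC on both strands, which 29.1% of all 35116 windows of this length hold. Matches were found in 5 of the 11 windows: 1 each for AKR1C1, AKR1C2 and PGD, and 2 each for ME1 and for 1 of the 2 windows of IDH1. The AKR1C1 and AKR1C2 windows are nearly the same sequence and hold the same match, and the windows of AKR1B1 overlap. The 11 windows are therefore not independent, and their share cannot be read against that of all windows. The windows of ME1, whose 2 lowest libraries are control replicates 1 and 2, and of IDH1, which rose with NFE2L1, are printed 5′ to 3′ on the coding strand with the matches in capitals.
ME1, chr6:83431002-83431301, minus strand: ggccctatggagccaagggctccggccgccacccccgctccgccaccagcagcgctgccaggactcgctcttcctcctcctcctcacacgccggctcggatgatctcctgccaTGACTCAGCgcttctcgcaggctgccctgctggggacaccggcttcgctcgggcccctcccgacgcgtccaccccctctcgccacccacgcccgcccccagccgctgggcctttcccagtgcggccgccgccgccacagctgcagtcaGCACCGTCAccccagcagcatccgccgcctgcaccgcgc
IDH1, chr2:208255022-208255321, minus strand: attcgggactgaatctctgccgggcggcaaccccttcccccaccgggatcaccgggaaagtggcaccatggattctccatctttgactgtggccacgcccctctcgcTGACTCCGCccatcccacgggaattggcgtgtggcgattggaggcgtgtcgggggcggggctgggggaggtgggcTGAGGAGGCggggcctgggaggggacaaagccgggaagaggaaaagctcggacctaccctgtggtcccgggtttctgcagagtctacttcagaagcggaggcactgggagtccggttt
In ME1 the match TGACTCAGC starts 137 bases before the annotated start, and in IDH1 the match TGACTCCGC starts 143 bases before it. A match describes letters in the window and is neither a binding site nor a cause of the values above.

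Of the 14 other pentose phosphate genes, 11 were tested, and with NFE2L1 RPIA and PRPS1 rose and TKT fell, 3 of 11 beside 10.4% of all genes. RPIA, ribose-5-phosphate isomerase, rose to 23.1, 24.8 and 22.2 TPM with NFE2L1 and to 21.0, 21.2 and 20.0 TPM with NFE2L1DC, against 13.7, 14.8 and 16.3 TPM in control (log2 fold changes 0.61 and 0.45, SE 0.10 each, limma adjusted p = 0.00814 and 0.0491). The RPIA call was lost in 1 of 20 other settings with NFE2L1 and in 13 of 20 with NFE2L1DC. TKT, transketolase and the most abundant gene of the list, was at 1179, 1158 and 1163 TPM with NFE2L1, at 1258, 1286 and 1363 TPM with NFE2L1DC and at 1539, 1432 and 1311 TPM in control. It fell by 0.29 on the log2 scale with NFE2L1 (SE 0.067, adjusted p = 0.0284), also under median-of-ratios scaling, a call lost in 9 of 20 other settings. With NFE2L1DC its log2 fold change was -0.13 (adjusted p = 0.289), and without control replicate 3 it passed at -0.19 (adjusted p = 0.0459). PRPS1, which makes phosphoribosyl pyrophosphate, rose by 0.25 with NFE2L1 (adjusted p = 0.0468), a call lost in 15 of 20 other settings.

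Of the 14 other genes that make NADPH or NADP, 11 were tested. IDH2 fell with NFE2L1 and none rose, 1 of 11 beside 10.4% of all genes. A positive log2 fold change was seen in 10 of the 11, and no share of positive values over all genes was taken. The median of the 11 was 0.43, beside one of 0.17 for all genes tested. Neither median has the GC and length correction, and the part of GC content in this list was not tested. Without control replicate 3, in which ME2, NADK2 and NNT were higher by 1.17, 1.11 and 0.83 on the log2 scale, these medians were 0.43 and 0.24. With NFE2L1DC none was called by limma, beside 3.61% of all genes, and 5 had an unadjusted p under 0.05. Of 12 other aldo-keto reductases only 4 were tested, and 1 of the 4 was called with NFE2L1, beside 10.4% of all genes. KCNAB2, a subunit of potassium channels with an aldo-keto reductase fold, rose by 0.41 (SE 0.10, limma adjusted p = 0.0334, lost in 11 of 20 other settings). It stood at 29.2 ± 2.46 TPM with NFE2L1, 20.5 ± 0.952 TPM with NFE2L1DC and 21.6 ± 0.982 TPM in control (SD, n = 3 each). AKR1A1 and AKR7A2 ran the other way with NFE2L1, at -0.43 (limma adjusted p = 0.0511) and -0.39 (adjusted p = 0.0994). KCNAB3 was at 0.26 (adjusted p = 0.594), and the median of the 4 was -0.066. None of the 15 genes of malate and citrate exchange was called by limma in any comparison, with 3 at an unadjusted p under 0.05 in each. Beside this, 10.4% of all genes were called with NFE2L1, 3.61% with NFE2L1DC and 0.793% between the lines.

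Among 27 reductases that use NADPH, 26 were tested. With NFE2L1 limma called 2 higher and 1 lower, beside 7.83% higher and 2.57% lower of all genes. With NFE2L1DC it called 1, lower, beside 1.54% lower of all genes. TXNRD1, thioredoxin reductase, rose by 0.86 with NFE2L1 (SE 0.21, limma adjusted p = 0.0353), to 326, 297 and 291 TPM, against 169, 141 and 196 TPM in control. The NFE2L1DC libraries spread from 192 to 375 TPM, and their log2 fold change of 0.71 missed the threshold (adjusted p = 0.101) but passed without control replicate 3 at 0.83 (adjusted p = 0.0347). GSR, glutathione reductase, fell by 0.46 with NFE2L1 (SE 0.10, adjusted p = 0.0232), and RDH10, a retinol dehydrogenase, rose by 0.50 (SE 0.14, adjusted p = 0.0484). Of 20 other settings, the call was lost in 11 for TXNRD1, 5 for GSR and 16 for RDH10. Without control replicate 3, RDH10 rose by 0.66 with NFE2L1 (adjusted p = 0.00201) and by 0.45 with NFE2L1DC (adjusted p = 0.015), against 0.29 with all control libraries (adjusted p = 0.262). CBR1, carbonyl reductase 1, was at 239, 237 and 235 TPM with NFE2L1, at 79.3, 139 and 101.5 TPM with NFE2L1DC and at 218, 220 and 222 TPM in control. It fell by 1.07 with NFE2L1DC (SE 0.16, adjusted p = 0.0109), to under all libraries of both other groups, a call lost in 4 of 20 other settings. The 26 reductases had a median log2 fold change of 0.09 with NFE2L1 and 0.097 with NFE2L1DC, beside 0.17 and 0.12 over all genes.

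**Figure D4:**
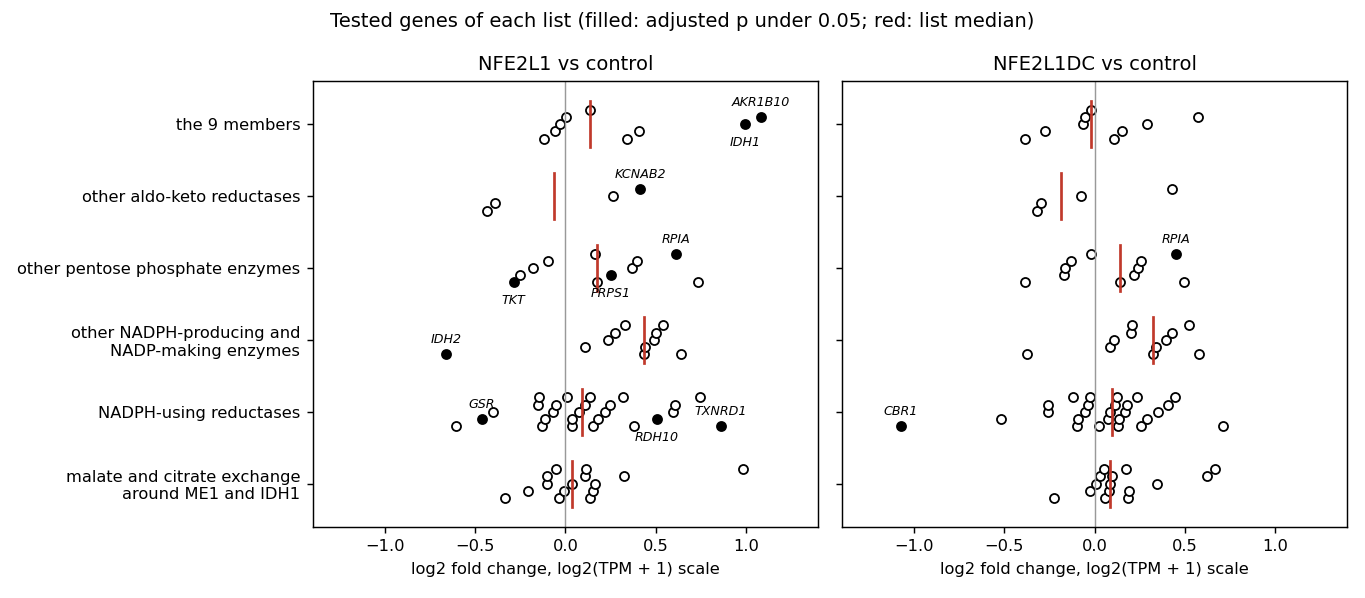
Log2 fold changes (x axes, log2(TPM + 1) scale) of the tested genes of each list, 1 point per gene, in NFE2L1 against control and NFE2L1DC against control. Filled points have an adjusted p under 0.05 and carry the gene's name, and red lines are list medians: 0.14 for the 9 members with NFE2L1 and -0.018 with NFE2L1DC.

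The genes whose log2(TPM + 1) ran most like that of IDH1 over the 9 libraries, among protein-coding genes with a mean of at least 10 TPM, were SNRPE (Pearson's r 0.99), MCMBP (0.98) and SRRM1 (0.98). Like IDH1, all 3 were higher in control replicate 3 than in control replicates 1 and 2, by 0.26, 0.55 and 0.60 on the log2 scale. For AKR1B10 they were SAT1 (0.98), SEL1L3 (0.96) and HELZ2 (0.95). HELZ2 was at 27.5 ± 0.961 TPM with NFE2L1, 5.66 ± 0.86 TPM with NFE2L1DC and 4.32 ± 0.271 TPM in control (SD, n = 3 each). These correlations describe libraries that share groups and are given with no test.

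Of the 10 leukocyte, endothelial and fibroblast markers, 4 were tested. With NFE2L1 limma called 1 higher and 2 lower, beside 7.83% higher and 2.57% lower of all genes. With NFE2L1, CD68 rose by 0.71 (limma adjusted p = 0.00335) while COL3A1 fell by 0.53 (adjusted p = 0.011) and PDGFRB fell by 0.78 (adjusted p = 0.0406, lost in 11 of 20 other settings). The fourth, COL1A1, was not called, at -0.15 with NFE2L1 (adjusted p = 0.456) and 0.038 with NFE2L1DC (adjusted p = 0.882). With NFE2L1DC, COL3A1 fell by 0.62 (adjusted p = 0.0127). The summed level of the 10 was 127 to 142 TPM with NFE2L1, 110 to 128 TPM with NFE2L1DC and 147 to 164 TPM in control, most of it COL3A1, while PTPRC, CD3E and LYZ were listed at 0 in all libraries. Their part in the results above was not tested.

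**Figure D5:**
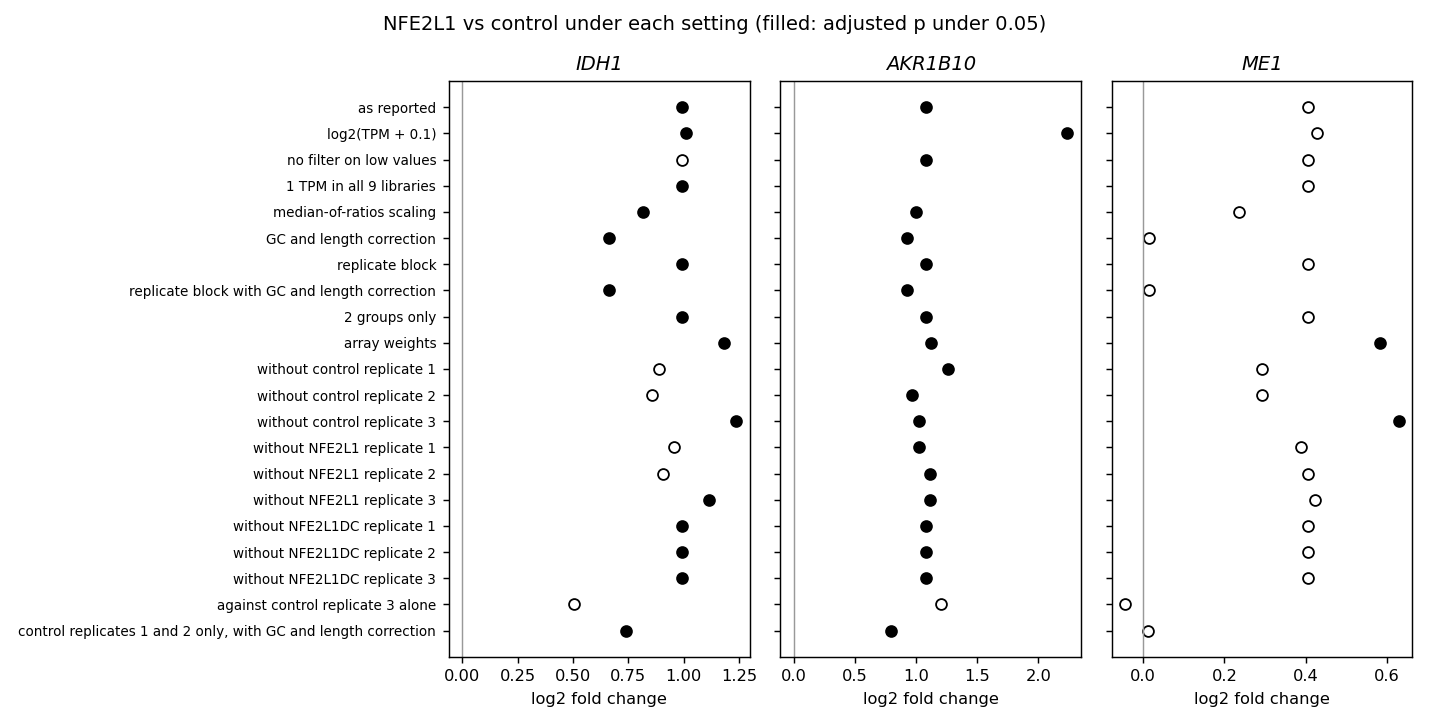
Log2 fold change of IDH1, AKR1B10 and ME1 in NFE2L1 against control (x axes) under the reported setting, in the top row, and each alternative. Filled points have an adjusted p under 0.05. IDH1 is higher in all settings, from 0.51 to 1.24. ME1 passes only with library weights and without control replicate 3. Library weights gave control replicate 3 the lowest weight, 0.195, so these settings are not separate support.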

How the data were processed

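RNA-seq values of 58174 genes in 9 libraries were used. The deposited values were taken as TPM, scaled by the authors within each library, because their column sums lie between 999983 and 999991.7; that they correct for length is part of that reading. CASAVA and GRCh38 are named, per the submitters' processing notes; the sources used here give no aligner, quantifier, annotation or strandedness. Genes at or above 1 TPM in at least 3 libraries were kept (14118). log2(TPM + 1) was fitted with 1 mean per group in limma 3.58.1 (R 4.3.3, trended variances), 2-sided, with Benjamini-Hochberg adjustment over all genes of a comparison; calls have an adjusted p under 0.05. Log2 fold changes understate changes of genes near 1 TPM. The procedure was tested on simulated data. Errors of means are SD over 3 libraries.

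GENCODE release 29 gave coordinates, GC content and length of the longest transcript (57836 identifiers matched). The GC and length correction subtracts loess fits (span 0.3) from each library and thereby also centres it. Alternatives were the pseudocount, filters, median-of-ratios scaling, that correction, a replicate block, fits of 2 groups only, library weights and leaving out each library; 2 choices of control libraries were added after seeing the data.

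The members and lists were chosen with earlier results of these data known. Named are the members, NFE2L1, up to 6 called genes per list (7 lists, 104 genes) by smallest adjusted p, and the 3 genes most correlated with each called member; other genes were named after their values were seen. 1 gene of a list is not reported here by name.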

Additional observations from a re-analysis of the deposited data

Results flagged for a closer look

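In these 3 genes the changes of the overexpressing lines against control differed from each other, as tested directly by limma between the lines. AKR1B10 was higher by a log2 fold change of 1.10 with NFE2L1 than with NFE2L1DC (SE 0.19, adjusted p = 0.0369, higher in 3 of 3 libraries), at 1.88 ± 0.213 TPM with NFE2L1 and 0.348 ± 0.186 TPM with NFE2L1DC (SD, n = 3 each). It reached 1 TPM only in the NFE2L1 libraries and entered the test through them, so this call is no independent support, and it was lost in 11 of 17 other settings. CBR1 was higher by 1.18 (SE 0.16, adjusted p = 0.0107, higher in 3 of 3 libraries), at 237 ± 1.84 TPM with NFE2L1 and 107 ± 30.3 TPM with NFE2L1DC, a call lost in 5 of 18 other settings. CD68, a lysosomal glycoprotein used as a macrophage marker, was higher by 0.55 (SE 0.10, adjusted p = 0.0474, higher in 3 of 3 libraries), at 37.4 ± 3.96 TPM with NFE2L1 and 25.2 ± 1.04 TPM with NFE2L1DC, a call lost in 15 of 18.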

How the results depend on the processing

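The count of called members, 2 with NFE2L1 against control, was 1 with no filter on low values, where IDH1 was lost, 1 with 1 TPM required in all 9 libraries, where AKR1B10 was not tested, and 0 against control replicate 3 alone; without 1 library it ranged from 1 to 3. With NFE2L1DC the 0 became 2 (IDH1 and ME1) with library weights and 1 (AKR1C3) against control replicates 1 and 2 with the GC and length correction, and ranged from 0 to 2 without 1 library. The library weight of control replicate 3 was 0.195, against 0.75 to 1.89 for the others, so that setting comes near to leaving it out. Between the lines the 1 called member was 0 with log2(TPM + 0.1), no filter, 1 TPM in all 9 libraries, median-of-ratios scaling, and the GC and length correction without and with the replicate block, and 0 to 1 without 1 library.

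All genes called with NFE2L1 (1468) were 947 with no filter, 872 with the replicate block, 848 with 2 groups only, 5962 with library weights, 307 against control replicate 3 alone and 2695 against control replicates 1 and 2 with the GC and length correction (510 to 5055 without 1 library). With NFE2L1DC (509) they were 894 with that correction, 198 with the replicate block, 101 with 2 groups only, 3322 with library weights, 68 against control replicate 3 alone and 1617 against control replicates 1 and 2 with the correction (115 to 3444). Between the lines (112) they were 58 with the replicate block and 201 with library weights (49 to 147). The causes were not tested. Same-numbered libraries had correlations of their deviations between -0.19 and 0.11, and differently numbered ones between -0.18 and 0.28. These values cannot tell whether the samples were handled as pairs. The replicate block moved no member across the threshold.

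Log2 fold changes near 0 turned sign. With NFE2L1, AKR1C1 (reported as not called) was -0.16 under median-of-ratios scaling, -0.40 with the GC and length correction without or with the replicate block, -0.17 against control replicate 3 alone and -0.53 against control replicates 1 and 2 with the correction (-0.090 to 0.14 without 1 library). AKR1C3 was 0.012 with library weights (-0.15 to 0.062), PGD 0.21 against control replicate 3 alone (-0.19 to 0.023), TALDO1 -0.042 and CBR1 -0.072 under median-of-ratios scaling, ME1 -0.044 against control replicate 3 alone, and PRPS1 -0.019 against control replicates 1 and 2 with the correction. With NFE2L1DC, AKR1B1 was -0.016 under median-of-ratios scaling, -6e-04 with library weights and -0.090 against control replicates 1 and 2 with the correction (-0.081 to 0.24). AKR1B10 was 0.016 with log2(TPM + 0.1), 0.0089 with library weights and 0.098 against control replicate 3 alone (-0.14 to 0.16). AKR1C2 was -0.14 with the correction without or with the replicate block and -0.37 against control replicates 1 and 2 with it. Against control replicate 3 alone PGD was 0.20 (-0.20 to 0.020), TALDO1 0.08, ME1 -0.16 and RDH10 -0.029. GSR was 0.030 with library weights, and AKR1C1 ranged from -0.50 to 0.014 without 1 library. Between the lines PGD was -0.055 under median-of-ratios scaling, -0.026 with the correction without or with the replicate block and -0.039 with library weights (-0.081 to 0.094), and PRPS1 -0.025 under median-of-ratios scaling and -0.048 with the correction without or with the block (-0.023 to 0.081). Without 1 library AKR1C1 ranged from -0.01 to 0.50 and TXNRD1 from -0.11 to 0.37. Depth is unknown, so the counting error of AKR1B10, which lies near 1 TPM, cannot be given.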
